A study of Mus musculus with 6 samples.

Results

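The 9 genes described here, Lck, Fyn, Zap70, Lat, Lcp2, Themis, Cd5, Ptpn22 and Ubash3a, encode kinases, adaptors and brakes that act in the first steps after the T cell receptor is engaged. They were chosen by name, with earlier results of these data known, out of 55416 genes counted. Each was found once by its Ensembl identifier. RNA was sequenced in 6 libraries from CD3+ spleen T cell fractions of wild-type C57BL/6 mice, 3 from mice that received an allograft (tissue of a genetically different donor) and 3 from mice that received an isograft (tissue of a genetically identical donor). In both groups the cells had been kept in culture medium with serum before RNA was extracted. The labels name neither the grafted organ nor the donor strain, and give no interval after grafting, culture time or age of the mice. Nor do they state whether each library is a mouse of its own, so the p-values here refer only to variation among these libraries, some of which could be technical.

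In textbook terms, Lck, a Src family kinase held at the coreceptors CD4 and CD8, phosphorylates the CD3 and zeta chains of the receptor. ZAP-70, the product of Zap70, docks on those chains and phosphorylates the scaffold LAT and the adaptor SLP-76 (the product of Lcp2), on which phospholipase C gamma and other effectors gather. CD5, PTPN22 and the UBASH3 proteins restrain this cascade.

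Library totals ran from 30078504 to 34123777 counts in allograft libraries and from 30066137 to 37821738 in isograft libraries. The 9 genes were well covered, from 372 counts for Themis in allograft replicate 1 to 14766 for Lcp2 in the same library. Levels are given as CPM, each gene's share of the library's counts on the customary scale after TMM scaling (trimmed mean of M values), as mean ± SD of 3 libraries per group. The 6 T cell markers checked were detected in both groups and summed to 715 to 788 CPM in allograft and 954 to 977 CPM in isograft libraries. The 3 CD4 T cell markers summed to 136 to 156 CPM in allograft and 233 to 270 CPM in isograft libraries, with Cd4 itself at 71.2 CPM in allograft and 211 CPM in isograft libraries, while Cd40lg of the same list rose. The 3 CD8 T cell markers summed to 263 to 312 CPM in allograft and 288 to 298 CPM in isograft libraries. Of them Cd8a and Runx3 rose and Cd8b1 fell. The 10 B cell markers were present as well, at a summed 1629 to 1780 CPM in allograft and 1352 to 1457 CPM in isograft libraries. Of these 10, 4 rose and 4 fell. Over all genes tested 28.7% rose and 29.1% fell, which is the background for each marker list given here. Without Fcer2a, left out after its values were seen like the genes left out of the lists below, the B cell sums were 1277 to 1390 CPM in allograft and 1299 to 1403 CPM in isograft libraries. Summed NK cell markers reached 119 to 127 CPM in allograft and 82.8 to 88.1 CPM in isograft libraries, but 3 of the 8 rose and 2 fell, and without Eomes and Prf1 the sums were 37.7 to 46.2 CPM in allograft and 54.5 to 57.9 CPM in isograft libraries. Summed dendritic cell markers reached 79.0 to 86.8 CPM in allograft and 35.7 to 37.6 CPM in isograft libraries, and without Zbtb46 22.6 to 26.1 CPM in allograft and 21.4 to 24.3 CPM in isograft libraries. Summed macrophage and monocyte markers reached 78.4 to 93.6 CPM in allograft and 101 to 106 CPM in isograft libraries, though 2 of the 8 rose and 3 fell. The part of these shifts in the results below was not tested. In such bulk samples a smaller share of a cell type and less RNA per cell cannot be told apart.

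Allograft libraries had more RNA of Lcp2, Cd5, Zap70, Fyn and Ptpn22 and less of Ubash3a than isograft libraries, while Lck, Lat and Themis did not pass the test. By edgeR's quasi-likelihood test with Benjamini-Hochberg adjustment over 14926 genes and a threshold of 0.05, 5 of the 9 rose and 1 fell. Over all genes tested 28.7% rose and 29.1% fell, so 6 of the 9 changed, against a background of 57.8%. The groups did not overlap for 7 of the 9, and for 63.3% of all genes. The median log2 fold change (allograft minus isograft) of the 9 was 0.34, against -0.01 over all genes tested. Since the 9 were chosen with earlier results of these data known, these comparisons with all genes are descriptions only. Changes ran from a 3.96-fold higher level of Lcp2 to a 5.03-fold lower level of Ubash3a in allograft libraries.

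**Figure D1:**
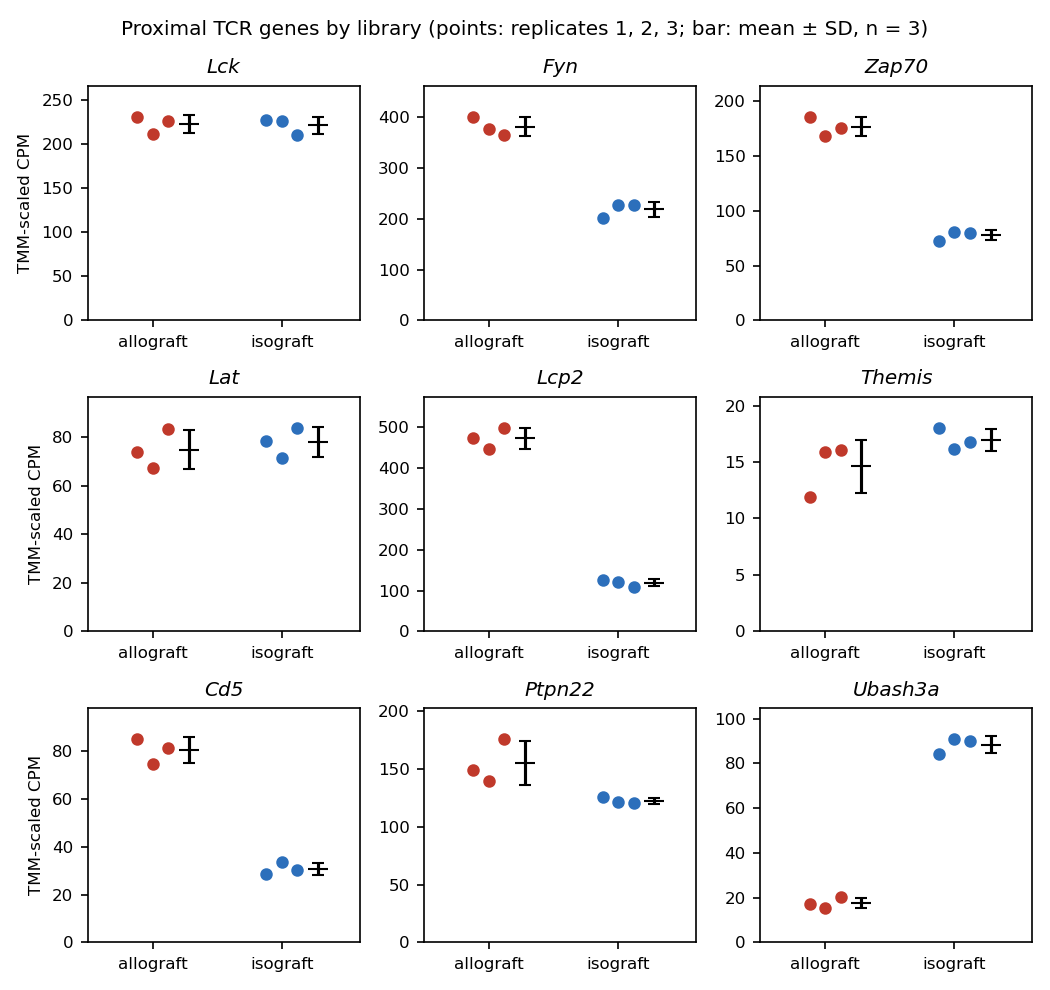
TMM-scaled CPM of each of the 9 genes in every library, allograft in red at the left of each panel and isograft in blue at the right, with the mean and SD of 3 libraries in black. Lcp2 lies between 446 and 499 CPM in allograft and between 109.5 and 127 CPM in isograft libraries, Ubash3a lies between 15.6 and 20.2 CPM in allograft and between 84.1 and 91.1 CPM in isograft libraries, and the groups overlap for Lck and Lat.

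The sequence just upstream of 3 of these genes is shown because they moved most, Lcp2 and Cd5 upward and Ubash3a downward. Each is the 250 bases before the RefSeq start, 5′ to 3′ on the gene's strand, from RefSeq on GRCm38.p6, a build other than the one of the count files. Capitals mark matches on either strand to 8 short motifs, namely RUNX (TGTGGT), ETS (GGAAGT), AP-1 (TGANTCA), NFAT (GGAAAA), TCF/LEF (CTTTGA), E-box (CAGCTG), GC box (GGGCGG) and NF-kB (GGGA, any 4 bases, then CC).
Lcp2, chr11:34046678-34046927, plus strand: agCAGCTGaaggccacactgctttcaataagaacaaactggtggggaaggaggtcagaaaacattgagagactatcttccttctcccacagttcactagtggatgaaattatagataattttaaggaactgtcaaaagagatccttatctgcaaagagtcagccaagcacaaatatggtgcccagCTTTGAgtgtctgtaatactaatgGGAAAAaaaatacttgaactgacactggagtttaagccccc
Cd5, chr19:10738975-10739224, minus strand: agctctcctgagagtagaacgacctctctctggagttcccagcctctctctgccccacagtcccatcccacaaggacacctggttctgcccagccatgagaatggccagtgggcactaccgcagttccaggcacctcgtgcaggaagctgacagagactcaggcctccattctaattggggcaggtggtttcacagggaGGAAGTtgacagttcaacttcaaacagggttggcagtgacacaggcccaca
Ubash3a, chr17:31207816-31208065, plus strand: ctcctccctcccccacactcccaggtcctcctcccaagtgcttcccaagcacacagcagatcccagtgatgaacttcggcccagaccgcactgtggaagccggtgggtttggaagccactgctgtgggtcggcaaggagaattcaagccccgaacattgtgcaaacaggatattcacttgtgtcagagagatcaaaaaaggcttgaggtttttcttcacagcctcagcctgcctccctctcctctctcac

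The Lcp2 window holds an E-box at its far end, a TCF/LEF match 65 bases and an NFAT match 41 bases before the start. The Cd5 window holds a single ETS match, 51 bases before the start. The Ubash3a window holds none of these letters. RefSeq lists 14 starts for the 9 genes, some of them overlapping, and ETS matches lay in 5 of those 14 windows, against 19.7% of all 32851 windows. The TCF/LEF letters were in 3 of the 14 windows (Fyn, Zap70 and Lcp2), against 13.8% of all windows, and the AP-1 letters in 0 of the 14, against 6.75%. RUNX letters were in 3 of the 14, against 14% of all, and NF-kB letters in 5, against 17.6%. NFAT letters were in 2 of the 14, against 20.4% of all windows, GC box letters in 2, against 32.7%, and E-box letters in 1, against 13%. In the Fyn window a GC box match and an NF-kB match share bases. A match is a description of the letters and not of a bound site.

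Among the kinases, Fyn and Zap70 rose while Lck did not pass the test. Lck (ENSMUSG00000000409, chromosome 4, 129442137 to 129467434, GRCm39, minus strand) had 231, 212 and 226 CPM in allograft replicates 1, 2 and 3, against 228, 226 and 210 CPM in isograft replicates 1, 2 and 3. Those values interleave. Its log2 fold change was 0.01 ± 0.07 (SE), with an adjusted p of 0.91 by edgeR.

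Fyn, the other Src family kinase abundant in T cells (ENSMUSG00000019843, chromosome 10, 39244851 to 39441377, plus strand), had 402, 378 and 365 CPM in allograft libraries, against 202, 228 and 227 CPM in isograft libraries. Every allograft library was above every isograft library. The log2 fold change was 0.80 ± 0.07 (edgeR adjusted p = 1.2e-08), a 1.74-fold higher level. Zap70 (ENSMUSG00000026117, chromosome 1, 36800879 to 36821899, plus strand) had 186, 169 and 176 CPM in allograft libraries, against 72.9, 80.7 and 80.1 CPM in isograft libraries. The lowest allograft library was above the highest isograft library by more than the whole spread within either group. The log2 fold change was 1.18 ± 0.07 (edgeR adjusted p = 4.9e-11), a 2.27-fold higher level.

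The balance of Fyn and Lck was compared directly, as their ratio within each library. Per kilobase of exon, Fyn stood at 1.17, 1.20 and 1.09 times Lck in allograft libraries, against 0.596, 0.679 and 0.723 times Lck in isograft libraries. By this measure Fyn was above Lck in each allograft library and below it in each isograft library. Before division by length, Fyn had 202.1, 228.2 and 226.5 CPM in isograft replicates 1, 2 and 3. Lck had 227.6, 225.5 and 210.2 CPM there, so the order within isograft libraries depends on the exon lengths used. The log2 ratio differed by 0.79 ± 0.09 (SE). The ratio of Syk, the B cell and innate relative of ZAP-70, to Zap70 was 0.452, 0.488 and 0.472 in allograft libraries, against 1.65, 1.53 and 1.59 in isograft libraries. Syk itself fell to 260 ± 2.78 CPM in allograft libraries, against 387 ± 11.4 CPM in isograft libraries (SD, n = 3 each; edgeR adjusted p = 3.4e-07). The exact permutation test over libraries gave a two-sided p of 0.1 for both ratios, the smallest that 3 against 3 libraries allow. It gave the same p for each of the 12 ratios computed, and 0.1 after Benjamini-Hochberg adjustment. These ratios do not depend on how libraries are scaled.

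**Figure D2:**
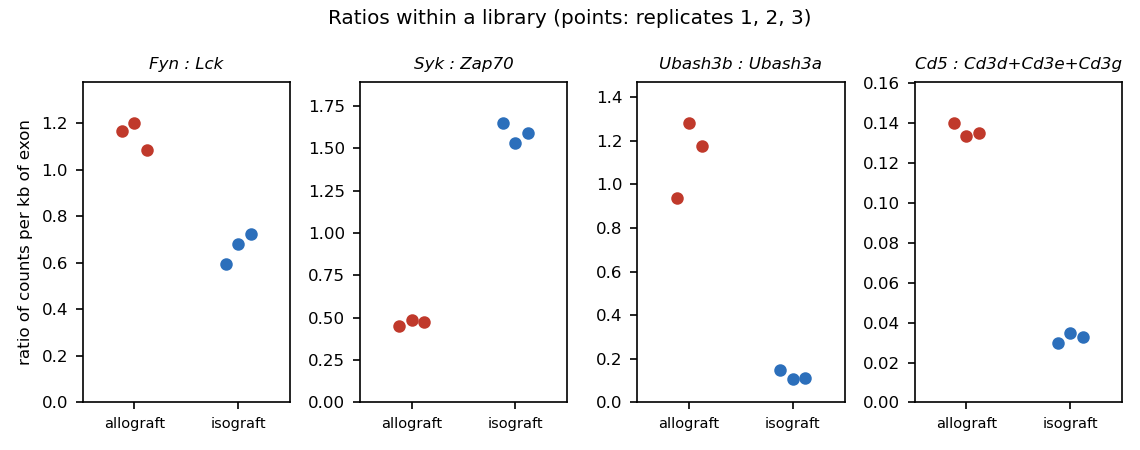
Ratios of counts per kilobase of exon within each library, allograft in red at the left and isograft in blue at the right of each panel, 1 point per library, on linear axes from 0. Fyn to Lck is 1.09 to 1.20 in allograft and 0.596 to 0.723 in isograft libraries, Syk to Zap70 is 0.452 to 0.488 in allograft and 1.53 to 1.65 in isograft libraries, and Ubash3b to Ubash3a is 0.938 to 1.28 in allograft and 0.11 to 0.149 in isograft libraries.

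Of the adaptors, Lcp2 showed the largest rise of the 9 genes, and Lat and Themis did not pass. Lcp2 (ENSMUSG00000002699, chromosome 11, 33996920 to 34042295, plus strand) had 473, 446 and 499 CPM in allograft libraries, against 127, 121.5 and 109.5 CPM in isograft libraries. The groups lie far apart, with the spread within each group below 10% of its mean, at 5.59% in allograft and 7.52% in isograft libraries. The log2 fold change was 1.99 ± 0.08 (edgeR adjusted p = 6.2e-14), and 97.6% of all genes tested had a fold change at or below it. An antisense gene, 4930469K13Rik, shares 282 bases or 6.32% of the Lcp2 exons and had 566 counts over all 6 libraries, so reads there cannot be assigned by strand.

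Lat (ENSMUSG00000030742, chromosome 7, 125962996 to 125968742, minus strand), the membrane scaffold on which the signalling complex assembles, had 73.7, 67.4 and 83.2 CPM in allograft libraries, against 78.2, 71.4 and 83.8 CPM in isograft libraries. The groups overlapped, with a log2 fold change of -0.06 ± 0.09 (edgeR adjusted p = 0.59). Themis, an adaptor best known for its part in thymocyte selection (ENSMUSG00000049109, chromosome 10, 28544356 to 28759814, plus strand), was the lowest of the 9 per length. It had 11.9, 15.9 and 16.1 CPM in allograft libraries, against 18.1, 16.2 and 16.7 CPM in isograft libraries. Each allograft library was below each isograft library, by a margin of 16.1 against 16.15 CPM at the closest pair, and allograft replicate 1 stood below the others. The log2 fold change of -0.22 ± 0.12 did not pass (edgeR adjusted p = 0.14), and without that replicate it was -0.10 (edgeR adjusted p = 0.52).

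The brakes moved in both directions. Cd5 (ENSMUSG00000024669, chromosome 19, 10694480 to 10716366, minus strand), a surface glycoprotein whose level on T cells is known to follow the strength of receptor signalling and which a subset of B cells also carries, had 85.2, 74.5 and 81.5 CPM in allograft libraries, against 28.5, 33.4 and 30.4 CPM in isograft libraries. The lowest allograft value was more than 2 times the highest isograft value. The log2 fold change was 1.38 ± 0.08 (edgeR adjusted p = 3.7e-11). Per kilobase of exon, Cd5 stood at 0.140, 0.134 and 0.135 of the summed Cd3d, Cd3e and Cd3g level in allograft libraries, against 0.0296, 0.035 and 0.0327 of it in isograft libraries.

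Ptpn22 (ENSMUSG00000027843, chromosome 3, 103767111 to 103819563, plus strand), a phosphatase that removes activating phosphates from Lck and ZAP-70, had 149.5, 140 and 176 CPM in allograft libraries, against 125.5, 121 and 121 CPM in isograft libraries. The allograft libraries spread more widely, at 12.1% of their mean against 2.08% in isograft libraries, but the groups did not overlap. The log2 fold change of 0.34 ± 0.08 passed (edgeR adjusted p = 0.0013). It did not pass with library totals in place of TMM (0.12, edgeR adjusted p = 0.22).

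Ubash3a (ENSMUSG00000042345, chromosome 17, 31426847 to 31465866, plus strand), a lymphoid inhibitor of receptor signalling, had 17.1, 15.6 and 20.2 CPM in allograft libraries, against 84.1, 91.1 and 90.2 CPM in isograft libraries. Its log2 fold change was -2.33 ± 0.09 (edgeR adjusted p = 1.0e-13), and 0.784% of all genes tested had a fold change at or below it. Its broadly expressed relative Ubash3b, which has the stronger phosphatase activity, had 12.97 ± 2.51 CPM in allograft and 7.07 ± 0.943 CPM in isograft libraries, and rose by 0.87 ± 0.15 on the log2 scale. The 2 genes therefore changed in opposite directions, and their levels lay closer together in allograft than in isograft libraries. Per kilobase of exon Ubash3b was 0.938, 1.28 and 1.18 times Ubash3a in allograft libraries, against 0.149, 0.11 and 0.111 times in isograft libraries, a log2 difference of 3.20 ± 0.20 (SE, exact permutation p = 0.1).

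The order of the 9 genes by level per kilobase of exon differed between the groups. In allograft libraries it ran Lcp2 at 106 ± 5.93 CPM per kb, Fyn at 87.5 ± 4.29, Lck at 76.0 ± 3.39, Zap70 at 59.1 ± 2.92, Lat at 27.0 ± 2.87, Ptpn22 at 22.9 ± 2.78, Cd5 at 16.3 ± 1.11, Ubash3a at 1.57 ± 0.207 and Themis at 1.25 ± 0.201. In that order only Lat and Ptpn22 had library ranges that overlapped. In isograft libraries Lck led at 75.5 ± 3.25 CPM per kb, followed by Fyn at 50.2 ± 3.34, then by Lat at 28.1 ± 2.25, Lcp2 at 26.8 ± 2.01 and Zap70 at 26.0 ± 1.46. Those last 3 were not separated, since the ranges of each neighbouring pair overlapped. Ptpn22 at 18.1 ± 0.377, Ubash3a at 7.87 ± 0.337, Cd5 at 6.24 ± 0.503 and Themis at 1.45 ± 0.0830 CPM per kb came after them. Lcp2 thus held rank 1 in allograft and rank 4 in isograft libraries, and Ubash3a and Cd5 changed places. The order within a group depends on the exon lengths used, from 2767 bases for Lat to 11682 bases for Themis. Before division by length, Ubash3a at 88.5 CPM was above Zap70 at 77.9 CPM in isograft libraries.

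**Figure D3:**
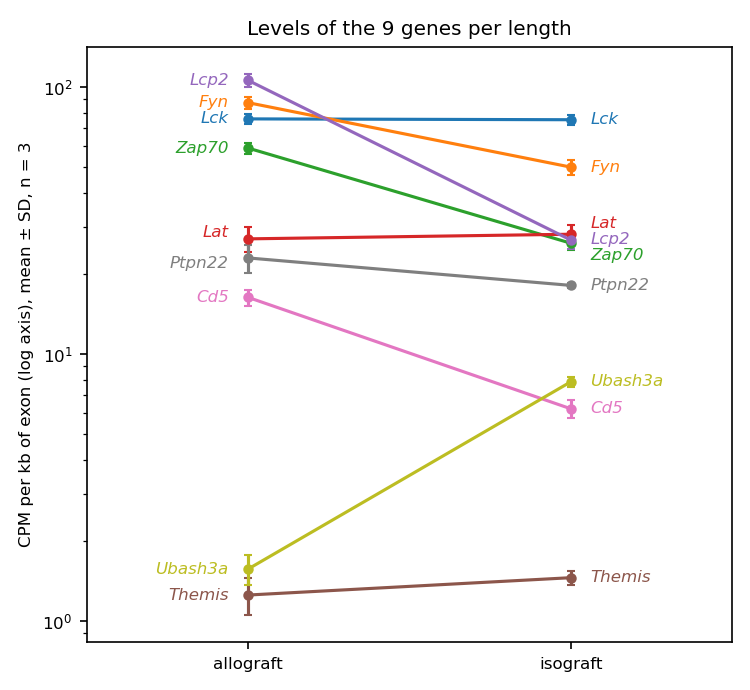
Level of each gene as TMM-scaled CPM per kilobase of exon, on a log axis, in allograft libraries at the left and isograft libraries at the right, mean ± SD of 3 libraries. Lcp2 stands at 106 in allograft and 26.8 in isograft libraries, Ubash3a at 1.57 in allograft and 7.87 in isograft libraries, and Lck at 76.0 in allograft and 75.5 in isograft libraries.

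Of the receptor complex on which these proteins act, the 3 CD3 chain genes and the beta chain constant gene Trbc2 fell, while the alpha chain constant gene Trac rose. Cd3d had 102.5 CPM in allograft and 176 CPM in isograft libraries, Cd3e had 79.1 CPM in allograft and 123 CPM in isograft libraries, and Cd3g had 143 CPM in allograft and 215 CPM in isograft libraries, each past the threshold by edgeR. Trbc2 had 29.96 CPM in allograft and 57.6 CPM in isograft libraries, and Trac had 83.7 CPM in allograft and 50.9 CPM in isograft libraries, both past it as well. Set against the summed level of Cd3d, Cd3e and Cd3g, 8 of the 9 were higher in allograft libraries and Ubash3a was lower, with no overlap between groups for any of them. Against that sum 63.4% of all genes tested were higher and 9.13% lower in allograft libraries without overlap, and the median gene was 1.59 times as high in allograft as in isograft libraries. Against that sum, Lcp2 was 6.39 times as high in allograft as in isograft libraries, Cd5 4.21, Zap70 3.66, Fyn 2.81, Ptpn22 2.03, Lck 1.62, Lat 1.55 and Themis 1.38 times, and Ubash3a 0.319 times. Lck, Lat and Themis thus lay close to or below the median gene.

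How libraries were scaled set the direction of the 3 genes that did not pass. Library totals without scaling factors moved the median of all genes by -0.22 on the log2 scale. With them Lck, Lat and Themis fell, by 0.21, 0.28 and 0.44 on that scale. Scaling by the summed Cd3d, Cd3e and Cd3g counts moved the median of all genes by 0.66, and with it the same 3 rose, by 0.67, 0.60 and 0.45. Relative to those shifts they stood at 0.01, -0.06 and -0.22 with totals and at 0.01, -0.06 and -0.21 with the Cd3 scaling. A change of scaling moves every gene by nearly the same amount, so these values repeat those under TMM by construction. Lcp2, Cd5, Zap70 and Fyn rose and Ubash3a fell under each of the 15 alternatives.

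**Figure D4:**
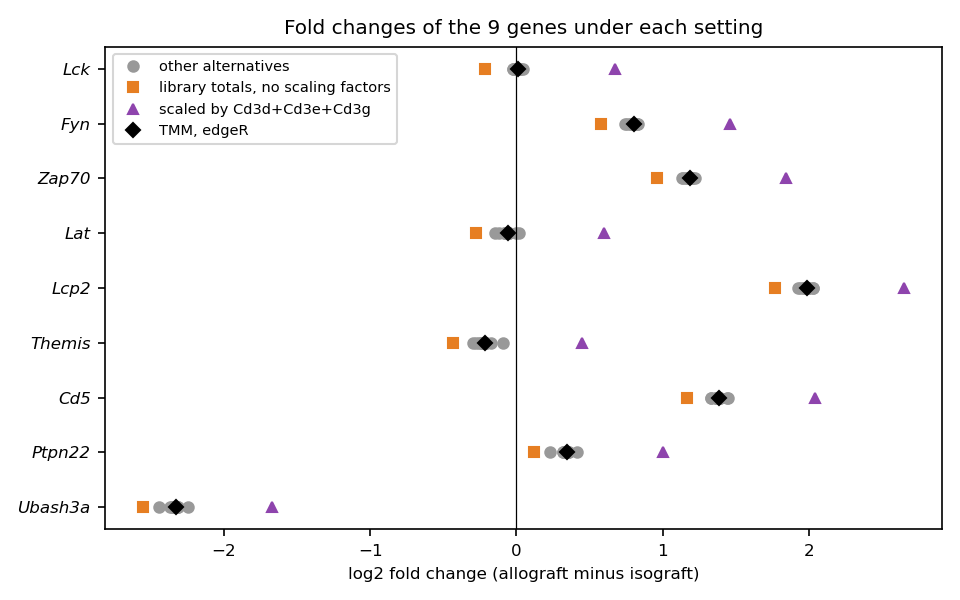
Log2 fold change (allograft minus isograft) of the 9 genes under TMM scaling (black diamonds), library totals (orange squares), scaling by Cd3d, Cd3e and Cd3g (purple triangles) and 13 other alternatives (grey circles). The triangles lie about 0.66 to the right of the diamonds and the squares about 0.22 to the left, so that Lck, Lat and Themis lie on both sides of 0, while Ubash3a stays between -2.55 and -1.67.

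The wider set of genes acting with these 9 held 56 names, of which 54 passed the filter on low counts. Of the 54, 16 rose and 25 fell, and their median change was -0.135 on the log2 scale. The shares over all genes tested, 28.7% rose and 29.1% fell, are the background for this count and for the lists below. Lime1, with 1 to 7 counts per library, and Ptprcap, with 0 counts in each of the 6 libraries (a count that allows up to 3), were not tested.

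Of 7 other kinases, 0 rose by edgeR and 6 fell, with a median of -0.46. Txk, a Tec family kinase of T cells, fell to 33.6 ± 4.68 CPM in allograft libraries, against 63.8 ± 4.31 CPM in isograft libraries. Prkcq, the protein kinase C theta that links the receptor to NF-kB, fell by 0.46 ± 0.07 on the log2 scale, and Tec by 0.35 ± 0.07. Csk, the kinase that holds Lck and Fyn inactive and partners with PTPN22, was chosen after its values were seen. It had 154 ± 23.0 CPM in allograft and 223 ± 23.6 CPM in isograft libraries, a log2 fold change of -0.53 ± 0.10 (edgeR adjusted p = 3.3e-04).

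Of 22 other adaptors tested, 6 rose and 10 fell, with a median of -0.18. Grap2, the adaptor GADS that carries SLP-76 to LAT, fell to 133 ± 14.5 CPM in allograft libraries, against 407 ± 33.3 CPM in isograft libraries. Fyb, the adaptor ADAP that links SLP-76 to integrins, fell to 241 ± 35.3 CPM in allograft libraries, against 861 ± 31.0 CPM in isograft libraries, and its partner Skap1 fell by 1.26 ± 0.09 on the log2 scale. Tespa1, an adaptor needed for thymocyte development, rose to 86.2 ± 3.43 CPM in allograft libraries, against 24.3 ± 1.05 CPM in isograft libraries.

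Of 10 effectors, 1 rose and 6 fell, with a median of -0.32. Plcg1, the phospholipase C gamma that binds LAT and SLP-76, fell to 132 ± 10.8 CPM in allograft libraries, against 276 ± 10.8 CPM in isograft libraries (edgeR adjusted p = 3.2e-10). Vav2, an exchange factor for small GTPases, fell by 0.60 ± 0.08 on the log2 scale, and Arhgef6, another such factor, by 0.70 ± 0.07. Rasgrp1, the diacylglycerol-dependent activator of Ras, was the 1 that rose, at 93.9 ± 5.84 CPM in allograft and 56.0 ± 3.46 CPM in isograft libraries.

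Of 15 other phosphatases and brakes tested, 9 rose and 3 fell, with a median of 0.44. Ptpn6, the phosphatase SHP-1, which binds Themis, rose to 545 ± 53.4 CPM in allograft libraries, against 331 ± 13.1 CPM in isograft libraries. Ptpn2, which acts on Lck, Fyn and JAK kinases, had 156 ± 4.003 CPM in allograft and 92.8 ± 2.30 CPM in isograft libraries. Ptpn7, a phosphatase of MAP kinases, had 47.3 ± 1.36 CPM in allograft and 21.7 ± 3.09 CPM in isograft libraries. Inpp5d, the lipid phosphatase SHIP-1, was among the 3 that fell, by 0.78 ± 0.07 on the log2 scale. Many of these genes are also expressed by B cells and myeloid cells.

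**Figure D5:**
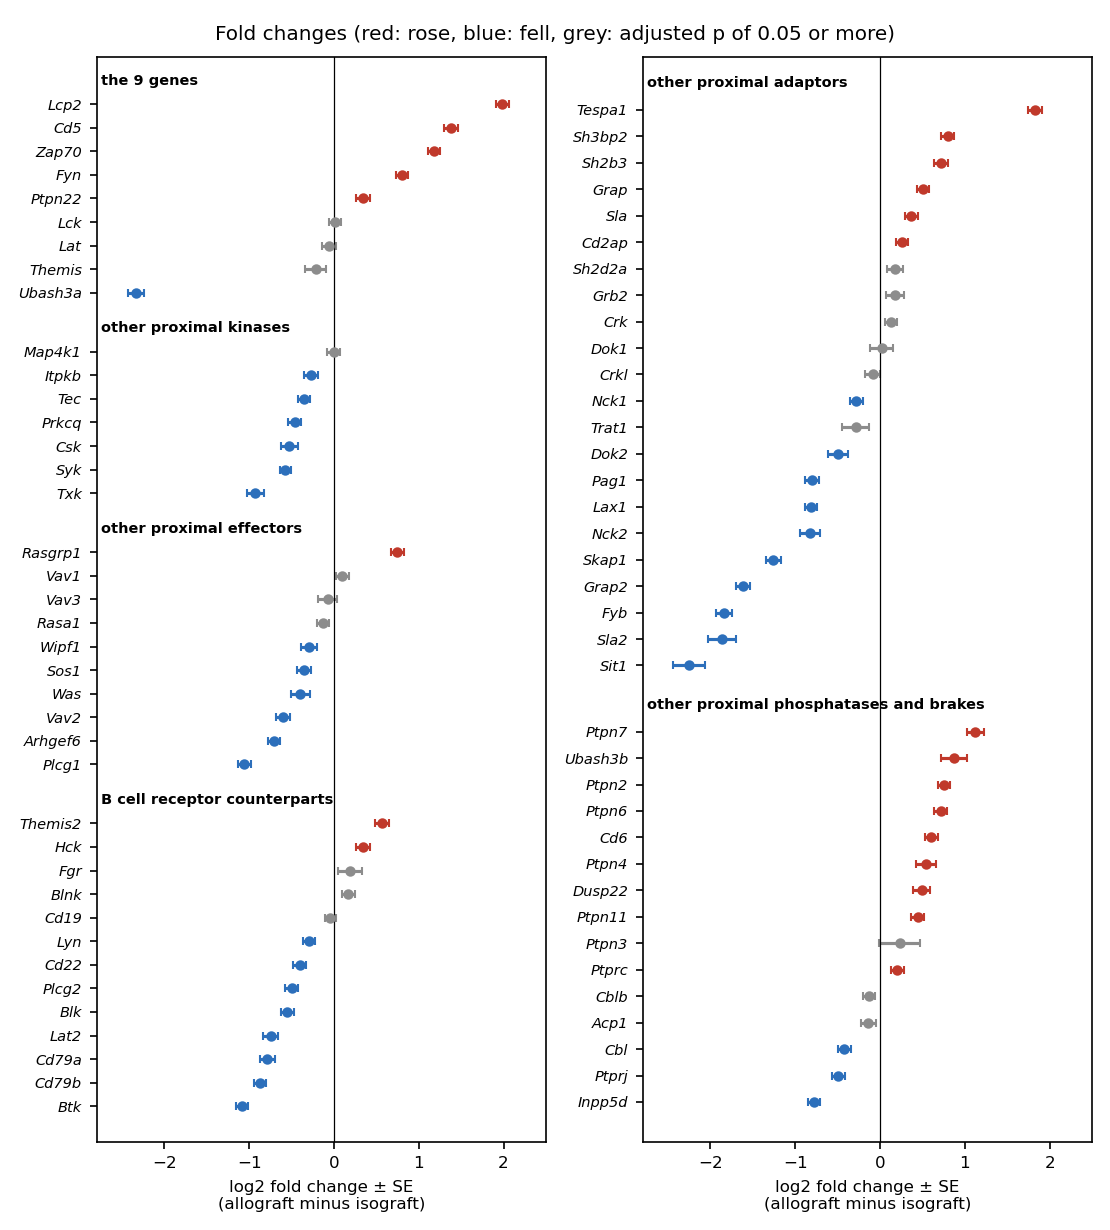
Log2 fold change (allograft minus isograft) with its SE for the 9 genes, the other proximal kinases, effectors, adaptors and brakes, and the B cell receptor counterparts, from edgeR with TMM scaling. Red points rose, blue points fell and grey points had an adjusted p of 0.05 or more, and 6 of 7 other kinases fell while 9 of 15 other brakes rose. Over all genes tested 28.7% rose and 29.1% fell.

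The corresponding machinery of the B cell receptor was read from the same libraries, since B cell RNA was present. Of its 13 genes, 2 rose and 8 fell, with a median of -0.40, while 28.7% of all genes tested rose and 29.1% fell. Btk, the Tec family kinase of B cells, fell to 52.3 ± 2.32 CPM in allograft libraries, against 111 ± 1.95 CPM in isograft libraries. Cd79b and Cd79a, the signalling chains of the B cell receptor, fell by 0.87 ± 0.07 and 0.78 ± 0.09 on the log2 scale, and Lat2, a relative of LAT in B cells and mast cells, by 0.75 ± 0.09. Themis2, the B cell relative of Themis, was 1 of the 2 that rose and was chosen after its values were seen, at 135 ± 14.6 CPM in allograft and 91.1 ± 5.57 CPM in isograft libraries.

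The most similar profile over the 6 libraries, given here for 8 of the 9, was sought among 8808 other named genes with a mean of at least 5 CPM, by the correlation of log2 CPM. Since the libraries fall into 2 groups, this likeness mostly reflects the group difference where there is one, and it is given as a description. The nearest gene was Surf6 for Zap70, Ddx51 for Lcp2, Cyc1 for Cd5 and Osbpl9 for Ubash3a, each with a Pearson coefficient of at least 0.9993. For the 4 others it was Mrps33 for Ptpn22 (0.9915), Zxdc for Themis (0.9873), Gfm2 for Lck (0.9821) and Tnfsf10 for Lat (0.9495). The correlation does not compare the size of changes. Log2 fold changes were 1.081 for Surf6, 0.913 for Ddx51, 0.390 for Cyc1 and -0.464 for Osbpl9. Those of Zap70, Lcp2, Cd5 and Ubash3a were 1.18, 1.99, 1.38 and -2.33.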

How the data were processed

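RNA from CD3+ spleen cell fractions was sequenced in 6 libraries, 3 per group, which the labels' titles assign. Per the file headers, featureCounts 1.6.0 was run on paired HISAT alignments with exons summed by Ensembl gene (GRCm39 annotation, release 104). What the authors deposited are these whole-number counts, not normalized. The headers set no strand or multi-mapping option. GRCm38 and mm10 appear in the submitters' processing notes, but 7 of the 9 genes do not overlap between those builds and all had at least 372 counts per library, so positions are printed as GRCm39.

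An Ensembl ID gave a symbol to 52083 of the 55416 genes (93.99%). Genes passing filterByExpr (14926, holding 99.92% of the counts) were scaled by TMM and tested with edgeR 4.0.16 (quasi-likelihood, robust, Benjamini-Hochberg over all genes, threshold 0.05) in R 4.3.3. The SE was taken from the log2 fold change and the F statistic (their quotient after a square root of F). Ratios within a library were tested by an exact two-sided permutation over libraries with scipy 1.17.1. The procedure was also run on simulated counts with known changes in a small share of the genes. In these data 57.8% of the genes tested were called, so that run does not show how TMM scaling performs here. Counts of libraries in the same group differed by more than sampling noise, with chi-square values of 9.58 to 20 per degree of freedom, so no library was taken for a second deposit of another. This does not show that they come from separate mice. The alternatives were RLE, library totals, scaling by Cd3d, Cd3e and Cd3g, DESeq2 1.42.0, limma-voom (limma 3.58.1), no filter, a filter at 5 CPM in 3 libraries, a replicate block, removal of immunoglobulin, hemoglobin and mitochondrial genes, and each library left out.

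The 9 genes and the lists were chosen with earlier results of these data known. Beyond the 9, up to 4 genes with the smallest p among those past the threshold are named from each pathway list, with the genes of the ratios and, where said, genes chosen after their values were seen. Some genes are not reported here. Promoter windows come from RefSeq.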

Additional observations from a re-analysis of the deposited data

How the results depend on the processing

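The calls for Lcp2, Cd5, Zap70, Fyn and Ubash3a held under each of the 15 alternatives. Ptpn22 lost its call with library totals. With library totals 4 of the 9 genes fell in place of 1, and 1 of the B cell receptor counterparts rose in place of 2. With scaling by Cd3d, Cd3e and Cd3g 8 of the 9 rose in place of 5, 35 of the other proximal genes rose and 7 fell in place of 16 and 25, and 7 of the B cell receptor counterparts rose and 2 fell in place of 2 and 8. These 2 scalings shift all genes together, by -0.22 and 0.66 on the log2 scale, and over all genes 2973 rose and 6093 fell with the first, and 9133 rose and 1260 fell with the second. The sign of genes near 0 also changed. Lck was at -0.212 with library totals, -0.011 with no filter and -0.015 with at least 5 CPM, and from -0.027 to 0.047 with 1 library left out. Lat was at 0.601 and Themis at 0.451 with the Cd3 scaling, and Lat lay between -0.149 and 0.014 with 1 library left out.

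The replicate numbers are shared by the groups. Deviations from the group means of same-numbered libraries correlated at -0.063, 0.003 and -0.034, so no strong shared deviation was seen. This cannot show whether same-numbered libraries were handled together, which the labels do not state. With the replicate number as a block 5 of the 9 rose and 1 fell, as without it, and the ratios gave an exact p of 0.25, the smallest that 3 pairs allow. With 1 library left out the ratio of Fyn to Lck differed by 0.714 to 0.854, Syk to Zap70 by -1.783 to -1.728, Ubash3b to Ubash3a by 3.106 to 3.344 and Cd5 to the Cd3 sum by 2.010 to 2.130, on the log2 scale.

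With 3 libraries per group, a difference of the size seen for Themis (-0.22 ± 0.12 on the log2 scale) did not pass. Without strand information, antisense reads cannot be told apart, and exon counts do not separate isoforms.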
